A study of Mus musculus with 8 samples.

Results

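The outermost cells of the epidermis are held together by modified desmosomes called corneodesmosomes, and they are shed when secreted serine proteases cut the proteins of those junctions. Many of these proteases are kallikreins, made as inactive precursors in the granular layer and activated one by another in the space between the cornified cells. KLK5, a trypsin-like kallikrein, can activate itself and the chymotrypsin-like KLK7, and together they cut corneodesmosin, desmocollin 1 and desmoglein 1. The inhibitor LEKTI, the product of Spink5, holds KLK5 and KLK7 in check, and its loss causes Netherton syndrome, in which the skin peels and the barrier leaks. Matriptase (St14) and prostasin (Prss8) are membrane-anchored proteases that act together in the same tissue and are needed for a working barrier.

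The genes described are the kallikreins Klk5, Klk6, Klk7, Klk8, Klk10, Klk11 and Klk13, the inhibitor Spink5, and the membrane proteases St14 and Prss8. They were chosen by name, as genes of epidermal shedding, and all 10 are among the 23432 gene symbols of the data. The other genes of the system came from lists of kallikreins, protease inhibitors, other epidermal proteases, substrates and receptors, and steps of the glucosylceramide pathway and the cornified envelope, of which 78 genes are in the data.

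The study asks what the histone acetyltransferase MOF (gene Kat8), which acetylates lysine 16 of histone H4, does in developing mouse skin, and which of its functions need KANSL1, a subunit of the NSL complex that holds MOF. Poly(A) RNA was sequenced from 8 libraries in 4 groups of 2. In embryos at stage E16.5, skin epithelial cells carrying the K14-H2BGFP reporter, in which the Krt14 promoter drives a green fluorescent histone, were sorted from the back skin of controls and of MOFfl/fl/K14Cre embryos (MOF cKO). At postnatal day 0.5 (P0.5), whole epidermis was lifted off the dermis with dispase from controls and from Kansl1fl/fl/K14Cre pups (Kansl1 cKO). In both knockouts the Cre recombinase runs from the Krt14 promoter, so the deletion starts in basal epithelial cells and is passed to the layers above. The study describes mosaic deletion in an MOF cKO embryo of its single-cell work, which is not used here. Controls were littermates without the full deletion, on a mixed background of both sexes. The libraries are numbered replicates, and nothing in the labels says that each is a separate animal, so the p-values measure the spread between these libraries.

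Counts assigned to genes came to 27561688 and 24957817 in the E16.5 controls, and to 22484018 and 25876862 in the MOF cKO libraries. They came to 9108709 and 14327981 in the P0.5 controls, and to 19774643 and 13712311 in the Kansl1 cKO libraries. Levels are given as counts-per-million values (CPM), in which a single count was worth between 0.0326 and 0.114 in the comparisons of a knockout with its controls. The CPM values are scaled with TMM factors computed within each comparison, so a control library has other CPM values in the comparison of the stages. Klk7 in P0.5 control replicate 1, for example, has 2267 CPM beside Kansl1 cKO and 2723 CPM beside E16.5. A gene was called when edgeR's quasi-likelihood test gave a Benjamini-Hochberg adjusted p of at most 0.01 and the fold change was above 1.5, the thresholds of the study. All 10 genes passed the filter on low counts in every comparison, although Klk6 passed it at E16.5 only through the MOF cKO libraries, and between the stages only through the P0.5 libraries.

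The epithelial identity of the samples was clear in every library. The summed CPM of 7 basal keratinocyte markers was 37350.0 and 35600.0 in the E16.5 controls, 31280.0 and 38460.0 in MOF cKO, 18520.0 and 19530.0 in the P0.5 controls and 17830.0 and 17580.0 in Kansl1 cKO, with Krt5 the most abundant. Neither deleted gene was called lower over its whole length. Kat8 had 443 and 408 counts in the E16.5 controls and 248 and 329 in MOF cKO, with a log2 fold change of -0.14 that did not pass edgeR's test (adjusted p = 0.554). Kansl1 had 40.7 and 48.2 CPM in the P0.5 controls and 31.4 and 30.6 in Kansl1 cKO, for a log2 fold change of -0.52 (adjusted p = 0.242 by edgeR). Counts over a whole gene do not separate the deleted exons from the rest. The study gives other evidence of the deletions. It reports that H4K16 acetylation was largely lost from MOF cKO epidermis at E16.5. It also reports loss of the targeted Kansl1 exon by qPCR and in RNA-seq reads. The sex of the libraries was not balanced, since Xist, the RNA that coats the inactive X chromosome of females, had 46531 counts in E16.5 control replicate 1 and 283 in replicate 2, against 239 and 236 in MOF cKO. At P0.5 it had 3723 and 19 counts in the controls and 7659 and 5353 in Kansl1 cKO.

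In E16.5 control cells Klk10 and Klk11 had the highest levels of the 10 genes, Klk7 lay in the middle of the order, and Klk5 and Spink5 lay near the bottom. These levels are transcripts-per-million values (TPM), which correct for gene length and allow genes to be ranked within a group, and each is a mean with its SD over 2 libraries. Klk10 had 144 ± 6.62 TPM, Klk11 60.7 ± 1.82 TPM and the membrane protease gene St14 45.0 ± 0.495 TPM. Klk8 followed with 27.4 ± 10.2 TPM, then Prss8 with 14.1 ± 0.942 TPM and Klk7 with 11.7 ± 0.407 TPM. Klk13 had 6.76 ± 0.682 TPM, Klk5 4.52 ± 1.01 TPM, the inhibitor gene Spink5 2.69 ± 0.17 TPM and Klk6 0.662 ± 0.241 TPM. No neighbours in this order overlapped between their libraries. St14 ranked above Klk11 when the length of the longest transcript was used, with 72.2 TPM against 50.6 TPM.

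In P0.5 control epidermis the order was changed in part, with Klk8 at rank 4 and Klk13 at rank 7 of the 10 at either stage. Klk7 now stood at the top with 2440 ± 724 TPM, followed by Spink5 with 875 ± 281 TPM and Klk5 with 580 ± 99.9 TPM, the protease, its inhibitor and its activator. Klk8, also called neuropsin, had 505 ± 40.5 TPM, Klk11 145 ± 32.6 TPM and Prss8 129 ± 12 TPM. Klk13 had 67.9 ± 14.2 TPM, Klk10 44.5 ± 6.98 TPM, Klk6 33.3 ± 24.6 TPM and St14 23.8 ± 3.41 TPM. Neighbours whose libraries overlapped were Klk5 and Klk8, Klk11 and Prss8, Klk10 and Klk6, and Klk6 and St14, so their places are not separated. With the longest transcript as length, St14 had 39.6 TPM and Klk10 34.4 TPM, with overlapping libraries, and the libraries of Spink5 and Klk5 overlapped as well.

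**Figure D1:**
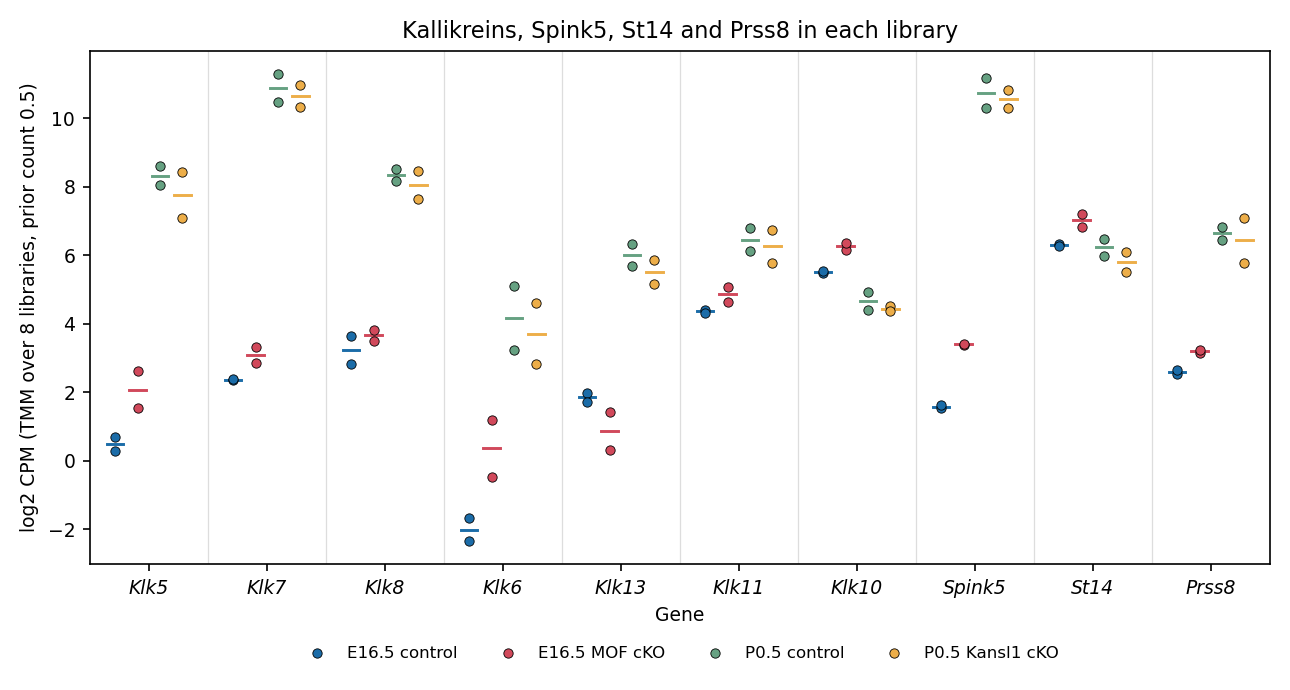
Expression of the 10 genes in each of the 8 libraries, as log2 CPM with TMM scaling over all 8 libraries and a prior count of 0.5. Each point is a library and each bar the mean of its group: Klk5, Klk7 and Spink5 are far higher at P0.5, Spink5 is near 3.4 in both MOF cKO libraries against 1.54 and 1.63 in the controls, and the Kansl1 cKO points overlap their controls for all 10 genes.

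The first comparison asks how the genes differ between control epithelium of the embryo and of the newborn, and sets P0.5 controls against E16.5 controls. The shedding proteases and their inhibitor rose by large factors, while Klk10 fell and St14 did not pass the test. Stage cannot be told apart here from the way the cells were collected, since the E16.5 cells were sorted and the P0.5 tissue was whole epidermis, nor from the sequencing of the pair of experiments. In bulk RNA, fewer cells of a type and less RNA per cell cannot be told apart either.

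Spink5 had 3.06 and 3.29 CPM in the E16.5 controls and 2502 and 1355 CPM in the P0.5 controls. Every P0.5 library was far above every E16.5 library, and the log2 fold change was 9.25 with a standard error of 0.388 (adjusted p = 1.33e-06 by edgeR). Klk7, which cuts corneodesmosin and desmocollin 1, had 5.40 and 5.58 CPM at E16.5 and 2723 and 1529 CPM at P0.5. Its groups were equally distinct, with a log2 fold change of 8.596 and a standard error of 0.360 (adjusted p = 1.33e-06 by edgeR). Klk5, its activator, had 1.27 and 1.71 CPM at E16.5 and 423 and 285 CPM at P0.5. It rose by 7.89 on the log2 scale with a standard error of 0.297 (adjusted p = 9.12e-07 by edgeR), so the inhibitor and the proteases it restrains all rose.

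The other trypsin-like kallikreins rose less. Klk6 had 6 and 9 counts at E16.5 and 271 and 131 at P0.5, a log2 fold change of 6.54 that carried the largest standard error among the 10 genes, 0.731. Klk8 rose by 5.08 on the log2 scale, from a mean of 10.4 ± 3.99 CPM to 353 ± 65.7 CPM (SD, n = 2). Klk13 rose by 4.21, from 3.83 ± 0.431 CPM to 71.5 ± 22.3 CPM (SD, n = 2). Klk11 had the smallest of these rises, 2.14, from 22.6 and 21.3 CPM to 120 and 74.8 CPM. Klk8, Klk11 and Klk13 passed edgeR's test, with adjusted p between 7.19e-06 for Klk8 and 0.000172 for Klk11. Klk6 passed as well, but it entered the test only through the P0.5 libraries, where it is high, so its call is a description.

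Klk10 went the other way. It had 47.7 and 50.1 CPM in the E16.5 controls and 33.0 and 22.7 CPM in the P0.5 controls, so both P0.5 libraries lay below both E16.5 libraries. It fell by 0.82 on the log2 scale with a standard error of 0.205 (adjusted p = 0.00969 by edgeR). That call lay close to the threshold and was lost with RLE factors (log2 fold change -0.78), with a filter at a mean of 1 CPM (-0.82), and without E16.5 control replicate 1 (-0.85), E16.5 control replicate 2 (-0.79) or P0.5 control replicate 2 (-0.57). The direction was the same in each of these.

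The membrane proteases, which act together at the cell surface, parted. Prss8 had 6.17 and 6.67 CPM at E16.5 and 124 and 93.7 CPM at P0.5, and rose by 4.08 on the log2 scale with a standard error of 0.201 (adjusted p = 2.77e-06 by edgeR). St14 had 86.1 and 83.4 CPM at E16.5 and 97.5 and 68.4 CPM at P0.5. The St14 libraries overlapped, with a log2 fold change of -0.04 (adjusted p = 0.877 by edgeR) whose sign turned with RLE factors (0.003) and without P0.5 control replicate 2 (0.20).

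In all, 8 of the 10 genes were called higher, or 7 without Klk6, and 1 lower, where 22.2% of the 13859 genes tested were called higher and 17.6% lower. The libraries of 9 of the 10 did not overlap between the stages, or of 8 without Klk6, against 80.9% of all genes tested. The median log2 fold change of the 10 genes was 4.65, or 4.21 without Klk6, and that of all genes tested was -0.0107. Markers of the granular and cornified layers, where these proteases act, moved with them: all 14 tested rose, 10 of which passed the filter on low counts only through the P0.5 libraries, and the summed CPM of the 15 in the data went from 12.4 and 15.8 at E16.5 to 28200.0 and 18280.0 at P0.5, with Lor the most abundant at E16.5, Hrnr at P0.5 and no marker absent from all libraries. Of 6 spinous markers 5 rose, and of 7 basal markers 3 fell. Markers of cells other than keratinocytes moved as well, with 13 of 16 macrophage markers and 6 of 6 melanocyte markers higher at P0.5, of which 11 and 2 passed the filter on low counts only through the P0.5 libraries. Muscle markers summed to 224 CPM in P0.5 control replicate 1 and to 4.46 CPM in replicate 2. The part of these cell types in the result was not tested.

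Most of the related genes tested were also higher at P0.5. Of the 49 tested, 36 were called higher, 1 lower and 12 not called. The median log2 fold change of the 49 was 3.26. It was 2.72 without the 11 that passed the filter on low counts only through 1 group. Of the 36, 9 passed the filter on low counts only through the P0.5 libraries, Serpina12 and Wfdc5 among them, so their calls are descriptions. Among the protease inhibitors 7 of 10 rose, 5 of them among the 9, which leaves 2 called of the other 4. Serpina12 (vaspin), an inhibitor of KLK7, went from 5 and 1 counts at E16.5 to 983 and 723 CPM at P0.5, a log2 fold change of 13.01. Wfdc5, of the WAP family of inhibitors, rose by 9.53. Of the inhibitors of matriptase, Spint1 had a log2 fold change of 0.61, which DESeq2 called and edgeR did not (adjusted p = 0.00844 by DESeq2 and 0.0123 by edgeR). Spint2 had one of 0.24 (adjusted p = 0.284 by edgeR) and was called by neither.

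Among the substrates and receptors 9 of 12 rose, and they include the proteins these proteases cut. Of the 9, 1 passed the filter on low counts only through the P0.5 libraries, Il1b, which leaves 8 called without it. Cdsn, encoding corneodesmosin, had 0.864 and 0.513 CPM at E16.5 and 1508 and 692 CPM at P0.5, a rise of 10.62 on the log2 scale. Dsc1, encoding desmocollin 1, rose by 7.16, the desmoglein 1 genes Dsg1a and Dsg1b rose by 3.82 and 3.86, and Flg2, encoding filaggrin 2, rose by 10.52. The receptor gene F2rl1, whose product PAR2 is switched on by cleavage, had a log2 fold change of -0.06 (adjusted p = 0.845 by edgeR), and was not called. Among the other epidermal proteases 15 of 22 rose and Prss22, encoding a trypsin-like protease of epithelia, fell by 3.33 on the log2 scale. Of the 15, 3 passed the filter on low counts only through the P0.5 libraries, which leaves 12 called without them. All 4 glucosylceramide and envelope genes rose.

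The second comparison asks how these genes differ at E16.5 when MOF is deleted. Of the 10 genes 3 rose in MOF cKO and none fell: the inhibitor gene Spink5, the membrane protease gene St14 and the kallikrein Klk10. Spink5 had the largest rise of the 3, and was the only one of them called under every alternative setting tried.

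Spink5 had 99 and 96 counts in the controls and 225 and 269 in MOF cKO, which is 3.23 and 3.47 CPM against 11.3 and 11.4 CPM. The libraries of each genotype lay close together and the groups did not overlap. The log2 fold change was 1.76 with a standard error of 0.256, a 3.39-fold rise (adjusted p = 0.00222 by edgeR). Over 13 alternative settings it lay between 1.46 and 1.81. The level reached was still far below that of P0.5 epidermis: with one scaling over all 8 libraries, log2 CPM was 3.39 and 3.43 in MOF cKO, against 11.17 and 10.30 in the P0.5 controls.

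Klk10, the most abundant of the kallikreins at this stage, had 50.4 and 52.8 CPM in the controls and 76.9 and 87.1 CPM in MOF cKO. Both MOF cKO libraries were above both controls, and the log2 fold change was 0.67 with a standard error of 0.120 (adjusted p = 0.00504 by edgeR). Its call was lost with library size alone as scaling (log2 fold change 0.37), in one fit over all 8 libraries (0.67), without E16.5 control replicate 1 (0.63) and without MOF cKO replicate 2 (0.58). Klk10 was thus higher in MOF cKO and lower at P0.5, where the shedding proteases were high.

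St14, encoding matriptase, had 91.0 and 88.0 CPM in the controls and 123 and 158 CPM in MOF cKO. The controls nearly coincided and both MOF cKO libraries lay above them, with a log2 fold change of 0.65 and a standard error of 0.139 (adjusted p = 0.00999 by edgeR). The adjusted p was just under the threshold, and the call was lost with upper-quartile factors (log2 fold change 0.59), with library size alone (0.35), in one fit over all 8 libraries (0.65), and without E16.5 control replicate 1 (0.67), E16.5 control replicate 2 (0.63) or MOF cKO replicate 2 (0.46). Prss8, encoding prostasin, the partner of matriptase, had 6.52 and 7.04 CPM in the controls and 9.59 and 10.04 CPM in MOF cKO. These groups did not overlap either, but the log2 fold change of 0.53 did not pass edgeR's test (adjusted p = 0.109). Prss8 shares 122 exon bases on the opposite strand with Kat8, the deleted gene, and although the library kit was directional, the strand setting of the counting is not given in the sources used here, so the counts do not show to which gene reads from that stretch were assigned.

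The shedding kallikreins Klk5 and Klk7 were higher in both MOF cKO libraries without passing the test. Klk5 had 41 and 50 counts in the controls and 62 and 153 in MOF cKO, which is 1.34 and 1.81 CPM against 3.11 and 6.48 CPM. MOF cKO replicate 2 stood well above replicate 1, and the log2 fold change of 1.61, with a standard error of 0.498, had an adjusted p of 0.0382 by edgeR. It was called at an adjusted p of 0.05, with every gene of at least 1 count tested (1.60), with a replicate block (1.54) and without MOF cKO replicate 1 (2.04). Klk7 had 5.71 and 5.88 CPM in the controls and 7.73 and 10.6 CPM in MOF cKO, with a log2 fold change of 0.66 with a standard error of 0.272 (adjusted p = 0.0918 by edgeR).

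Klk6 rested on very few reads, 6 and 9 counts in the controls and 15 and 57 in MOF cKO. All of its MOF cKO values lay above the controls, but a log2 fold change of 2.595 with a standard error of 0.870 did not pass (adjusted p = 0.05004 by edgeR). Klk11 had 23.9 and 22.5 CPM in the controls and 27.0 and 35.7 CPM in MOF cKO, with a log2 fold change of 0.43 (adjusted p = 0.0845 by edgeR). Klk8 was the only one of the 10 whose groups overlapped in TMM-scaled CPM, with 14.0 and 8.01 CPM in the controls and 15.3 and 12.1 CPM in MOF cKO. Its log2 fold change of 0.31 (adjusted p = 0.430 by edgeR) became -0.03 without E16.5 control replicate 2. Klk13 was the only one lower in both MOF cKO libraries, with 4.37 and 3.72 CPM in the controls and 1.31 and 2.84 CPM in MOF cKO, with a log2 fold change of -0.96 that did not pass (adjusted p = 0.158 by edgeR).

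The 3 genes called higher compare with 10% of the 13956 genes tested, and none was called lower, against 9.59%. By edgeR 7 of the 10 had an unadjusted p under 0.05, or 6 without Klk6, all of them higher, where 48.9% of all genes tested did in either direction. DESeq2 also called 3 higher and 0 lower, and it called 1776 higher and 1719 lower of the 15498 genes it tested. Libraries did not overlap for 8 genes that were higher, or 7 without Klk6, and 1 that was lower, where 34.9% of all genes tested were higher and 37.7% lower in that sense. In TPM, which carry no TMM factors, the libraries of Klk7, Klk11, St14 and Prss8 overlapped as well as those of Klk8. The median log2 fold change of the 10 was 0.655, or 0.649 without Klk6, against -0.0197 for all genes tested. With library size alone as scaling the medians of the 10 and of all genes moved down, to 0.353 and -0.324.

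Markers of other states of the epidermis and of other cell types moved with these genes at E16.5. All 6 spinous markers rose in MOF cKO, with a summed CPM of 4152 and 3373 in the controls and 9309 and 10190.0 in MOF cKO, and Krt10 the most abundant in the controls and Krt1 in MOF cKO. By staining, the study reports a thinner spinous layer in MOF cKO at this stage. Its single-cell RNA gave lower Krt1 and Krt10 within suprabasal cells of MOF cKO, a measure unlike that of all sorted cells together. Of 4 stress keratins 3 rose, and Krt6a, a keratin of stressed and wounded epidermis, went from 15.2 and 16.9 CPM to 1445 and 1491 CPM. Of 8 granular and cornified markers tested 1 rose, Ivl, which encodes involucrin, from 0.359 and 0.722 CPM to 10.8 and 9.82 CPM. The sum over all 15 markers in the data was 13.1 and 16.7 CPM in the controls and 25.3 and 27.4 CPM in MOF cKO, with Lor the most abundant in the controls, Ivl in MOF cKO and Lce3b at 0, and Ivl made up most of the difference. Among the tested markers 3 had a log2 fold change below 0, Lce1a1, Hrnr and Kprp. Of 7 basal markers 1 fell, Krt15, and of 6 periderm markers 1 fell, Krt8. Of 15 macrophage markers 9 rose, 7 of which passed the filter on low counts only through the MOF cKO libraries. Of 6 neutrophil and mast cell markers tested 2 rose, S100a9 and Mcpt4, and all 6 had an unadjusted p under 0.05, but 2 of the 6, Mcpt4 among them, passed the filter on low counts only through the MOF cKO libraries. Their list summed to 16.1 and 14.8 CPM in the controls and 36.6 and 68.9 CPM in MOF cKO, with Cpa3 the most abundant by its mean over these libraries. Ngp and Camp of that list were at 0. Mpo had 0 and 0 counts in the controls and 0 and 2 in MOF cKO. Elane had 0 and 1 counts in the controls and 0 and 0 in MOF cKO. Fibroblast markers summed to 934 and 1570.0 CPM in the controls and 1556 and 2172 CPM in MOF cKO, with Dcn the most abundant in the controls and Col3a1 in MOF cKO, and of the 8 edgeR called 0, DESeq2 called Lum and Pdgfra, and 6 had an unadjusted p under 0.05, with Dcn lower and the other 5 higher in both MOF cKO libraries. Of 4 endothelial markers 1 rose, Pecam1. The part of each in the result was not tested.

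Other genes of the system rose alongside Spink5. Of 46 related genes tested 17 were called higher and none lower by edgeR. The median log2 fold change of the 46 was 0.897. It was 0.623 without the 7 that passed the filter on low counts only through the MOF cKO libraries. Of the 17, Tslp, Il1b, Slpi and Tmprss11g passed the filter on low counts only through the MOF cKO libraries, so their calls are descriptions, and 13 are left without them. DESeq2 called 2 lower, Serpinb8 and Hpn. By edgeR 33 of the 46 had an unadjusted p under 0.05, or 28 without the 7 above, against 48.9% of all genes tested. The largest rise was that of Tslp, encoding a cytokine that keratinocytes release when PAR2 is activated, which went from 3 and 4 counts in the controls to 49.3 and 84.5 CPM in MOF cKO, with a log2 fold change of 9.07. Tgm1, encoding the transglutaminase that crosslinks the cornified envelope, rose by 3.81 on the log2 scale, from 5.81 and 3.68 CPM to 69.6 and 64.1 CPM. Il1b, encoding interleukin 1 beta, rose by 3.69, from 0.163 and 0.289 CPM to 3.36 and 2.54 CPM. Of the 4 glucosylceramide and envelope genes 2 rose, and of 13 substrates and receptors 4 rose. Of the 13, 2 passed the filter on low counts only through the MOF cKO libraries, Tslp and Il1b, which leaves 2 called without them.

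Among the inhibitors 4 of 7 rose. Of the 7, 2 passed the filter on low counts only through the MOF cKO libraries, Slpi and Wfdc5, which leaves 3 called without them. Of these 3, 2 are those that act on matriptase. Spint1 (HAI-1) had 46.9 and 43.9 CPM in the controls and 68.2 and 69.7 CPM in MOF cKO, and rose by 0.60 on the log2 scale (adjusted p = 0.00617 by edgeR). Spint2 (HAI-2) had 178 and 173 CPM in the controls and 283 and 258 CPM in MOF cKO, and rose by 0.62 (adjusted p = 0.00376 by edgeR). The matriptase gene and both of its inhibitors were thus called in the main fit, each by a similar amount. All of these calls lay close to a threshold. The fold change was 1.52 for Spint1 and 1.54 for Spint2, against a limit of 1.5. For St14 the adjusted p was 0.00999 by edgeR, and its call was lost in the alternatives named above. The alternatives for Spint1 and Spint2 are not reported here. Slpi, a secreted inhibitor of leukocyte proteases, rose by 3.80, from 0.0978 and 0.217 CPM to 2.21 and 2.24 CPM. Serpinb8, of the same list, was lower in both MOF cKO libraries, with a log2 fold change of -0.81. DESeq2 called it lower and edgeR did not (adjusted p = 0.00384 by DESeq2 and 0.0212 by edgeR). Serpina12, so high at P0.5, had 5 and 1 counts in the controls and 2 and 1 in MOF cKO, too few to test.

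The targets of the shedding proteases were less uniform. Dsc1 rose by 1.44 on the log2 scale, from 8.06 and 6.75 CPM to 22.7 and 17.5 CPM (adjusted p = 0.00254 by edgeR). Cdsn had 0.913 and 0.541 CPM in the controls and 1.56 and 2.71 CPM in MOF cKO, with a log2 fold change of 1.55 that did not pass (adjusted p = 0.0960 by edgeR). Dsg1b had a log2 fold change of 0.88 (adjusted p = 0.0109 by edgeR) and Dsg1a one of 0.37 (adjusted p = 0.108 by edgeR). Neither was called by edgeR, and DESeq2 called Dsg1b (adjusted p = 0.00236). F2rl1, the PAR2 gene, had 22.5 and 33.8 CPM in the controls and 46.3 and 62.7 CPM in MOF cKO, with a log2 fold change of 0.95 that edgeR did not call and DESeq2 did (adjusted p = 0.0143 by edgeR and 0.000180 by DESeq2). Of the other epidermal proteases 7 of 21 rose. Of the 21, 3 passed the filter on low counts only through the MOF cKO libraries, which leaves 6 called without them.

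The third comparison asks how the same genes differ at P0.5 when Kansl1 is deleted. None of the 10 was called by edgeR or by DESeq2, none had an unadjusted p under 0.05, and the libraries of all 10 overlapped between the genotypes. The spread between libraries of one genotype was large, and it ran the same way in most of the genes.

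Klk7 had 2267 and 1287 CPM in the controls and 1156 and 1895 CPM in Kansl1 cKO. The highest and the lowest value were a control and a knockout, with the others between them, and the log2 fold change was -0.22 with a standard error of 0.331 (adjusted p = 0.788 by edgeR). Spink5 had 2083 and 1141 CPM in the controls and 1142 and 1688 CPM in Kansl1 cKO, for a log2 fold change of -0.19 with a standard error of 0.319 (adjusted p = 0.818 by edgeR). Klk5 had 352 and 240 CPM in the controls and 122 and 326 CPM in Kansl1 cKO, for a log2 fold change of -0.40 with a standard error of 0.436 (adjusted p = 0.698 by edgeR). In all of them control replicate 1 was high, and Kansl1 cKO replicate 1 was below replicate 2.

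The remaining kallikreins other than Klk10 showed the same order of libraries. Klk8 had 333 and 258 CPM in the controls and 180 and 333 CPM in Kansl1 cKO, and Klk11 had 99.8 and 63.0 CPM in the controls and 49.3 and 101 CPM in Kansl1 cKO. Klk6 ranged most, with 31.1 and 8.47 CPM in the controls and 6.30 and 22.7 CPM in Kansl1 cKO. Klk13 had the lowest log2 fold change, -0.46, with 72.6 and 46.9 CPM in the controls and 32.1 and 54.8 CPM in Kansl1 cKO (adjusted p = 0.511 by edgeR). Klk10 varied least in the knockouts, with 20.7 and 19.3 CPM against 27.5 and 19.1 CPM in the controls.

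St14 had 81.1 and 57.5 CPM in the controls and 40.9 and 64.1 CPM in Kansl1 cKO, for a log2 fold change of -0.40 (adjusted p = 0.506 by edgeR). Prss8 had 103 and 78.9 CPM in the controls and 49.5 and 129 CPM in Kansl1 cKO, for a log2 fold change of -0.03 (adjusted p = 0.981 by edgeR) with the knockouts on either side of both controls. The membrane proteases thus gave no call either.

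Over all 13031 genes tested edgeR called 0, which is 0%, while 2045 had an unadjusted p under 0.05 and DESeq2 called 90, or 0.731% of the genes it tested. Libraries did not overlap for 48.7% of all genes tested and for 0 of the 10. The median log2 fold change of the 10 was -0.217, against 0.0123 for all genes tested. The values turned on single libraries: without Kansl1 cKO replicate 2, Klk5 (log2 fold change -1.28) and Klk6 (-1.63) were called lower, and without Kansl1 cKO replicate 1 the same genes had log2 fold changes of 0.11 and 0.19 and were not called. Where a group is left with a single library, its spread is taken from the other group.

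The 10 genes together summed to 5451 and 3200 CPM in the P0.5 controls and 2798 and 4634 CPM in Kansl1 cKO. The summed markers of the granular and cornified layers had the same order of libraries within each genotype, with 23480.0 and 15390.0 CPM in the controls and 10620.0 and 26610.0 CPM in Kansl1 cKO, Hrnr the most abundant of the 15 in the data and none of the 14 tested called by edgeR. Muscle markers summed to 186 CPM in control replicate 1 and to 3.75 CPM in replicate 2, against 2.66 and 1.58 CPM in Kansl1 cKO, with Acta1 the most abundant in the controls. Fibroblast markers summed to 1795 and 1125 CPM in the controls and 943 and 755 CPM in Kansl1 cKO. Dcn, the most abundant in Kansl1 cKO, had a log2 fold change of 0.52, and the other 7 were lower, each with an unadjusted p under 0.05, of which edgeR called 0 and DESeq2 called 5. Melanocyte markers summed to 461 and 508 CPM in the controls and 981 and 1106 CPM in Kansl1 cKO, with Dct the most abundant, and all 6 were higher in both Kansl1 cKO libraries, of which edgeR called 0 and DESeq2 called 4, while all 6 had an unadjusted p under 0.05. Neutrophil and mast cell markers summed to 31.05 and 6.01 CPM in the controls and 6.01 and 6.80 CPM in Kansl1 cKO. Of 15 macrophage markers tested 9 were higher in both Kansl1 cKO libraries, 5 had an unadjusted p under 0.05, and edgeR called 0. The part of these cell types in the spread was not tested.

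The related genes gave no call in Kansl1 cKO. Of 50 tested, edgeR called 0 and 2 had an unadjusted p under 0.05, with 25 above and 25 below a log2 fold change of 0. Their median was 0.000532. Serpina12 had 818 and 608 CPM in the controls and 458 and 835 CPM in Kansl1 cKO, for a log2 fold change of -0.14. Cdsn, the corneodesmosin gene, had 1255 and 582 CPM in the controls and 279 and 1283 CPM in Kansl1 cKO, for a log2 fold change of -0.23. Dsc1 had a log2 fold change of 0.27, Spint1 one of -0.35 and Spint2 one of -0.06. F2rl1 had 20.6 and 22.2 CPM in the controls and 27.0 and 24.98 CPM in Kansl1 cKO, and Tslp, so high in MOF cKO, was too low to test.

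The effects of the knockouts were also set against each other, as the MOF effect at E16.5 minus the Kansl1 effect at P0.5. The knockouts were studied at different stages and in differently collected cells, so gene and stage cannot be told apart in this difference. By edgeR 0 of the 10 genes were called, where 2.92% of 14565 genes were, and 5 had an unadjusted p under 0.05, as did 31.2% of all genes. DESeq2 called 1 of the 10, where it called 9.23% of all genes it tested. That gene was Spink5, with a difference of 1.92 on the log2 scale and a standard error of 0.398 (adjusted p = 0.0170 by edgeR and 7.63e-06 by DESeq2). It also passed in edgeR with library size alone (1.69), with every gene of at least 1 count tested (2.05), at an adjusted p of 0.05, and without P0.5 control replicate 2 (2.27), and over all alternatives its adjusted p lay between 2.24e-06 and 0.0641. The difference was 1.999 for Klk5 (adjusted p = 0.0844 by edgeR), 1.02 for St14 (adjusted p = 0.0692 by edgeR) and 0.85 for Klk10 (adjusted p = 0.0559 by edgeR). A call was gained in 2 of 16 alternatives for Klk5, in 1 for St14 and in 0 for Klk10. In the main fit, the rise of Klk10 and St14 in MOF cKO is not shown to differ from their values in Kansl1 cKO.

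The 7 kallikreins share a place in the genome as well as a function. They lie on the plus strand of chromosome 7 within 139 kb, from Klk13 at 43712567 to the end of Klk5 at 43851181 (GRCm38/mm10). From the Klk13 end the order is Klk13, Klk11, Klk10, Klk8, Klk7, Klk6 and Klk5, with Klk12 before Klk11 and Klk9 between Klk10 and Klk8. Spink5 lies on chromosome 18 (43963235 to 44022501), St14 on chromosome 9 (31089402 to 31131853) and Prss8 elsewhere on chromosome 7 (127925716 to 127930104). Neighbours did not move alike. Klk10, which fell with stage, starts at 43781035, between Klk11, which rose by 2.14 on the log2 scale, and Klk9, which rose by 6.09.

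Klk9 had 1.36 and 1.37 CPM in the E16.5 controls and 124 and 62.5 CPM in the P0.5 controls, and it was the only further kallikrein with enough reads to test in all comparisons. In MOF cKO its log2 fold change was 1.19 (adjusted p = 0.0816 by edgeR) and in Kansl1 cKO -0.15 (adjusted p = 0.928 by edgeR). Klk14, a further shedding protease in human skin, had 3 and 11 counts in the E16.5 controls and 0 and 0 in MOF cKO, too few to test. Klk12 had at most 6 counts in any E16.5 or P0.5 control library. Of the 19 other kallikreins 15 had no count in any E16.5 library, most of them copies of Klk1 with nearly the same sequence. Klk8 shares 382 exon bases with the antisense gene 2310002F09Rik, to which the same limit applies.

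**Figure D2:**
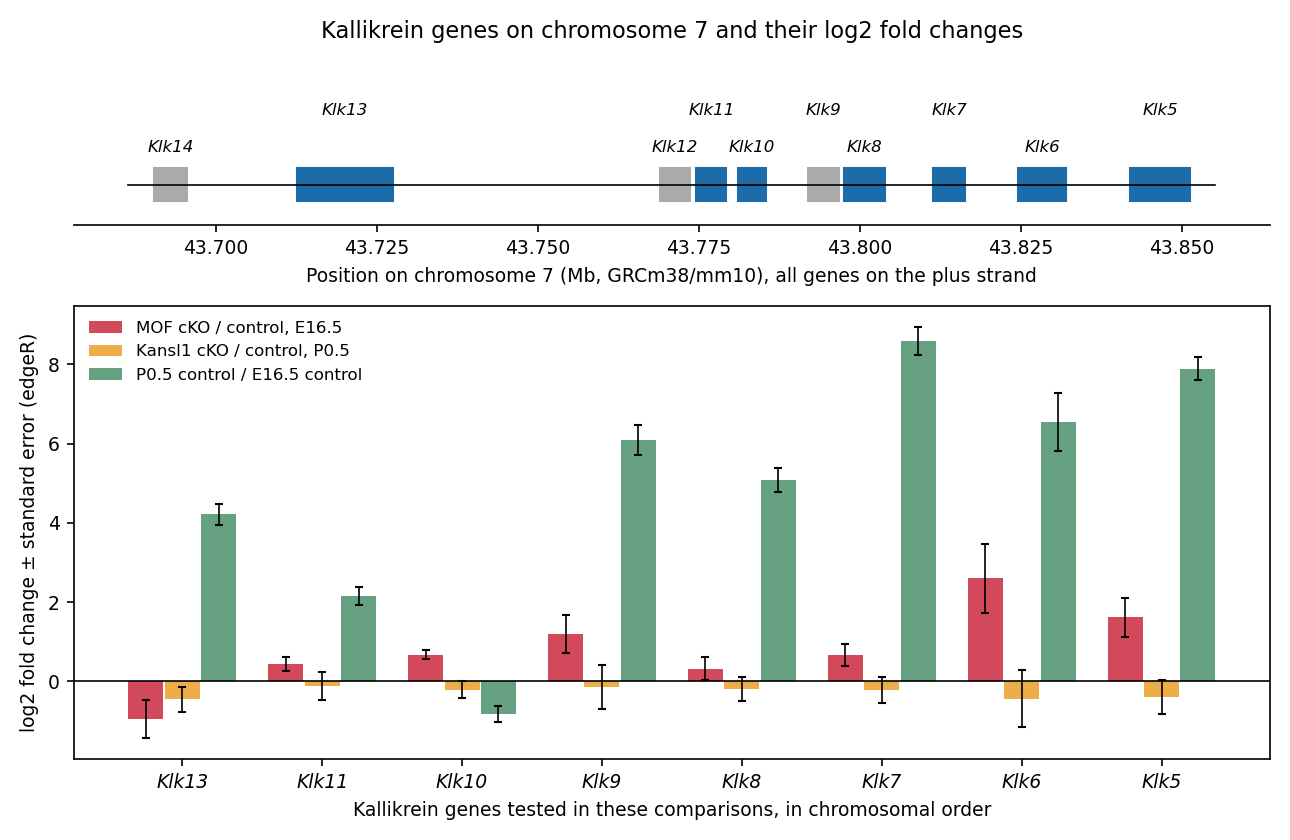
The kallikrein genes on chromosome 7 (upper map, position in Mb, the 7 genes described in blue and Klk9, Klk12 and Klk14 in grey) and, in the same order, the log2 fold change of each tested gene with its standard error in the 3 comparisons (lower bars, edgeR). Klk10, with bars of 0.67 for MOF cKO and -0.82 for stage, stands between Klk11 and Klk9, whose stage bars are 2.14 and 6.09, and the sign of the MOF cKO bar of Klk8 turns without E16.5 control replicate 2.

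Since these neighbours differ in their response, the promoters of 3 of them are printed for comparison: Klk7, with the highest level at P0.5, Klk8, which rose with stage and was not called in MOF cKO, and Klk10, which fell with stage and rose in MOF cKO. The sequences are RefSeq promoter sequences (GRCm38.p6, plus strand), which exist for 7 of the 10 genes in the table used, and each ends at the base before the first annotated start. They cover chr7:43811044-43811293 for Klk7, chr7:43797327-43797576 for Klk8 and chr7:43780804-43781034 for Klk10. Capitals mark matches, on either strand, to any of 5 motifs of epidermal transcription factors: TGANTCA (AP-1), AACCNGTT (GRHL), CACCC (KLF), TTGCNNAA (C/EBP) and CANNTG (E-box), where matches may overlap.
Klk7: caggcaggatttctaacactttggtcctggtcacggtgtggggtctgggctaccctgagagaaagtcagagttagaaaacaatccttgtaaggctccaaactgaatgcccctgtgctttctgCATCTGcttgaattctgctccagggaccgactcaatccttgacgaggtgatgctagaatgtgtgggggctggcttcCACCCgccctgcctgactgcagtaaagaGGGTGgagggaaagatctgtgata
Klk8: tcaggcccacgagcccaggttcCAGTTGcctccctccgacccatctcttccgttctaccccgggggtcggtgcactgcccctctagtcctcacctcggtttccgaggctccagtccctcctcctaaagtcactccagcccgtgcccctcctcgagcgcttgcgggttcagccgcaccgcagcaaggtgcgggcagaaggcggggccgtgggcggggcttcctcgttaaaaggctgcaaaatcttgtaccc
Klk10: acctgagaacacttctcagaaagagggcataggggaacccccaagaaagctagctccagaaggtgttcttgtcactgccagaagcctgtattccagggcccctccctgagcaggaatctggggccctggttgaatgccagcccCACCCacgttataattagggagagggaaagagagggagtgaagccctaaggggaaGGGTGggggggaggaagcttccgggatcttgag

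The Klk7 stretch holds CACCC letters at 52 and 24 bases before the start, the latter on the opposite strand, and an E-box at 128. The Klk10 stretch holds CACCC letters at 107 and, on the opposite strand, at 52 bases before the RefSeq start, and no E-box. The Klk8 stretch holds an E-box at 228 bases and no CACCC. Such letters are common: of 32851 promoters, CACCC is found in 52% and an E-box in 66.2% of stretches of 250 bases, and in 49.3% and 63.6% of stretches of 231 bases. AP-1 letters, found in 6.75% of stretches of 250 bases, GRHL letters, found in 1.79%, and C/EBP letters, found in 9.56%, are absent from these 3 windows. A match is a description of the letters and not a measured site.

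The genes whose expression ran closest to each member over the 8 libraries were found by root mean square distance of centred log2 CPM, among 14504 genes. For Klk7 they were Sdcbp2 (0.239), Cnfn (0.269) and Fndc9 (0.313), and for Klk5 they were Slc6a19 (0.274), Pdzk1ip1 (0.388) and Ly6g6c (0.403). The pattern of Spink5 was nearest to that of the protease gene Tmprss11f (0.31), of Trex2 (0.363) and of the inhibitor gene Wfdc5 (0.364). Nearest to Klk10 were Lyar at 0.0787, and Rrp12 and Noc2l at 0.127. The distance is not scaled by how much a gene varied, so the distances of different members are not compared. Nearest to Klk11 were Vgll3 (0.0967), Ovol1 (0.118) and Slc35e4 (0.123), and nearest to Klk8 were Asah2 (0.241), Serpinb13 (0.278) and Mpzl3 (0.288). Klk13 lay nearest to Elmod1 (0.325), Pdlim2 (0.332) and Gm2a (0.361), and Klk6 to Rasal1 (0.453), Sprr2e (0.575) and Dgat2 (0.582). The membrane protease genes had other neighbours, with Fam203a (0.124) nearest to St14, and Tmem86a (0.179), Rnf39 (0.211) and Tmem40 (0.224) nearest to Prss8. None of these genes was among the 3 nearest of more than 1 member.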

How the data were processed

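Poly(A) RNA of 8 libraries was sequenced in paired reads. The authors deposited raw counts per gene symbol from HTSeq, after alignment to mm10. The methods name HISAT2 and the labels TopHat2 as aligner. The gene annotation and strand setting are not given in the sources used here. Entries without a gene made up 21.1% to 26% of reads and were left out. Each comparison was fitted in edgeR 4.0.16 (R 4.3.3, limma 3.58.1) with filterByExpr, TMM factors, the quasi-likelihood test and Benjamini-Hochberg adjustment over all genes tested, and repeated in DESeq2 1.42.0. TPM used merged exon lengths of GENCODE M21, in which 98.3% of symbols were matched, with RefSeq synonyms. All 10 genes are named in the comparisons of the stages and of each knockout with its controls. The difference of effects is given for Spink5, Klk5, St14 and Klk10, and over the alternatives for Prss8. Related genes are named when called, up to the 4 largest rises and 4 largest falls with a mean of at least 1 CPM, with those whose products act on a member. Flg and the other listed symbols missing from the data are not analysed here. The summed level of the macrophage markers and the further patterns nearest to St14 are not reported here. The members and lists were chosen with earlier results of these data known.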

Additional observations from a re-analysis of the deposited data

How the results depend on the processing

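Depth limits Klk6 at E16.5, with 6 to 57 counts, and with 2 libraries a group 1 library can decide a call. Among the values of the 10 genes, 502 kept their direction and their side of the thresholds under the alternatives, 15 lost a call, 15 gained one and 17 changed sign; no cause was tested. Leaving out a library leaves a group with 1, which is assumed to vary like the rest. The alternatives were DESeq2, RLE factors, upper-quartile factors, library size alone, every gene with at least 1 count, a mean of at least 1 CPM, an adjusted p of 0.05, a replicate block, one fit over all 8 libraries and leaving out each library. A block pairing the P0.5 libraries crosswise, added after seeing the data, called none of the 10 in Kansl1 cKO.

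Library size alone moved the median of all genes from -0.0197 to -0.324 for MOF cKO, from -0.0107 to -0.467 for stage and from -0.0654 to -0.286 for the difference of effects. It moved the share of calls that were higher from 51% to 21.9%, from 55.8% to 32.5% and from 60.1% to 47.2%. For stage, upper-quartile factors gave a median of -0.121 and one fit over all 8 libraries -0.125.

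In MOF cKO, 1 of the 10 genes was called higher with library size alone and 1 in one fit over all 8 libraries, and leaving out each library gave 1 to 4 higher. Related genes called lower numbered 2 with DESeq2, 2 with library size alone, 4 with every gene of at least 1 count, 3 at an adjusted p of 0.05, 4 with a replicate block and 0 to 1 without each library. In Kansl1 cKO, leaving out each library gave 0 to 2 of the 10 genes and 0 to 4 related genes lower. For stage, 0 of the 10 were lower with RLE factors and 0 with a mean of at least 1 CPM, 0 to 1 without each library, and 2 related genes were lower with library size alone. For the difference of effects, 1 gene was higher with DESeq2, 1 with library size alone, 4 with every gene of at least 1 count, 1 at an adjusted p of 0.05 and 0 to 1 without each library.

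The sign of the log2 fold change of St14 with stage turned under RLE factors (0.003). It also turned when single libraries were left out, over which the values ran from -0.304 to 0.20 for St14 with stage, from -0.031 (without E16.5 control replicate 2) to 0.768 for Klk8 in MOF cKO, and from -0.004 (without Kansl1 cKO replicate 1) to 1.363 for Prss8 in the difference of effects. In Kansl1 cKO the lowest values came without P0.5 control replicate 2 for Klk10 and Spink5 and without Kansl1 cKO replicate 2 for the others named here. These ranges were -1.278 to 0.105 for Klk5, -1.625 to 0.752 for Klk6, -0.618 to 0.246 for Klk7, -0.716 to 0.139 for Klk8, -0.491 to 0.065 for Klk10, -0.717 to 0.278 for Klk11, -0.589 to 0.312 for Spink5 and -0.875 to 0.469 for Prss8. Above 0 were also, without Kansl1 cKO replicate 1, Klk6 (0.193), Klk7 (0.059) and Spink5 (0.033), and without P0.5 control replicate 1, Klk11 (0.251) and Prss8 (0.177).

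With the longest transcript as length, which changes the divisor, levels at E16.5 were 8.76 TPM for Klk7, 108 for Klk10, 50.6 for Klk11, 2 for Spink5, 72.2 for St14 and 10.5 for Prss8. At P0.5 they were 455 TPM for Klk8, 34.4 for Klk10, 39.6 for St14 and 100 for Prss8.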
